A study of Mus musculus with 1753 samples.

Results

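Cluster 4 is a group of mouse skeletal muscle fibroblasts that the study named paramysial, for a position at the fringe of the sheets of connective tissue around muscle fibre bundles. Its members were taken as the cells whose deposited cluster label is 4, and they numbered 60 of 1753 cells and of 1566 fibroblasts. The cells came from dissociated calf muscle (gastrocnemius, soleus or both) of male mice aged 10 to 20 weeks, were sorted singly into plates as positive for PDGFRα, PDGFRβ or a reporter and negative for the endothelial protein CD31, and were sequenced with Smart-seq2, a full-length method. Each cell is a sample, and its label gives a cluster, a strain and a plate. Of the cluster 4 cells, 6 carried the strain label Acta2GFP, 3 C57BL6, 1 Cspg4dsRED, 46 PdgfraGFP - PdgfrbGFP pool (the pool below) and 4 PdgfrbGFP. C57BL6 is an inbred strain without a reporter, and the other labels name lines in which the promoter of Acta2, Cspg4, Pdgfrb or Pdgfra drives a fluorescent protein. Each of these promoters is active in mural cells, in fibroblasts or in both, so a reporter marks no single cell type. For the Acta2GFP line the methods add elastase to the dissociation. The labels name no animal. The methods describe soleus muscle pooled from a pair of mice of the Pdgfra and Pdgfrb lines before dissociation, and 45 of the 46 cluster 4 cells of the pool lay on 1 soleus plate. Muscle was given as soleus for 48 cluster 4 cells, as gastrocnemius for 1 and not at all for 11.

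Fibroblasts build and turn over the extracellular matrix, the mesh of collagens, elastic fibres and proteoglycans that holds muscle fibres together and carries their force to the tendon. It is layered, with a thin sleeve on every fibre, called endomysium, and thicker septa between fibre bundles, called perimysium, that pass force on to tendon. Periostin, the product of Postn, is a secreted matricellular protein, which means that it binds both collagen and cell surface receptors, and it is known from tendon, periosteum and healing wounds.

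Depth ranged from 53889 to 1055869 counts per cluster 4 cell, with a median of 595321 counts and 6903 genes, against 266704 counts and 4456.5 genes in the other fibroblasts. On the soleus plate of the pool the median was 665294 counts in cluster 4 and 477221 in the 131 other fibroblasts. Levels below are scaled counts, that is, counts per 500000 counts of a cell without spike-ins. Level differences are log2 ratios after 5 scaled counts were added to each side. Within each of the 4 strain labels with 3 or more cluster 4 cells, the mean over cluster 4 cells was set against the unweighted mean of the other fibroblast clusters with 3 or more cells (called the rest), and values over strain labels are mean ± SD with n = 4. The clusters had been made by the authors from the same counts, so differences between clusters describe the clustering and carry no test. Over the 8608 genes with a level of 10 or more in cluster 4 or the rest, the median difference was −0.29, and it lay between −0.50 in C57BL6 and 0.03 in the pool. Cells of 1 label share plates and perhaps animals and are not replicates. Within a label, cluster 4 and the rest were not matched by plate or muscle. In the pool 45 of 46 cluster 4 cells but 131 of 355 other fibroblasts were on the soleus plate. In PdgfrbGFP 3 of 4 cluster 4 cells were on a soleus plate, and other fibroblasts lay also on a gastrocnemius plate. The part of plate, muscle and depth in these differences was not tested.

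The bases before the transcription start of Postn, C1qtnf3 and Col8a1 are shown here, because the results turn on these 3 markers. They come from the RefSeq promoter table (GRCm38.p6), run 5′ to 3′ on the strand of the gene and stop 1 base before the start. Capitals mark matches on either strand to TATAAA (the TATA box), CAGAC (the SMAD box) or GGAATG (an element known from TEAD factors). TGANTCA, the AP-1 element, was searched as well. The windows are chr3:54360857-54361106 on the plus strand for Postn, chr15:10952082-10952331 on the plus strand for C1qtnf3 and chr16:57754738-57754987 on the minus strand for Col8a1, which encodes a short-chain collagen. C1qtnf3 encodes a secreted protein with a collagen-like tail and a C1q-like head.
Postn: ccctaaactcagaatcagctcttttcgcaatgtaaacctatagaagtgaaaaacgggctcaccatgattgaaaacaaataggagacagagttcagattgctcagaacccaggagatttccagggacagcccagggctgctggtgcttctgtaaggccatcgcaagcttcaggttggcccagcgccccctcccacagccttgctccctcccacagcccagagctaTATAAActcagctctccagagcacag
C1qtnf3: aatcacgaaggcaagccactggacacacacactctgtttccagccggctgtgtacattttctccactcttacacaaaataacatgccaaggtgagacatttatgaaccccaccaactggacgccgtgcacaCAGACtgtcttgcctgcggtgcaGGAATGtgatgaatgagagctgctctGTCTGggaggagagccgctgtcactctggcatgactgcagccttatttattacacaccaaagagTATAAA
Col8a1: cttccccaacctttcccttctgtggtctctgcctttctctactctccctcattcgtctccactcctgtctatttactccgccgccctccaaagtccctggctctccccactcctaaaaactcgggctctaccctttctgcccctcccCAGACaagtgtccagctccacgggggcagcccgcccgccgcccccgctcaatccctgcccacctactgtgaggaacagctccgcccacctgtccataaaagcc

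The Postn window held TATAAA, beginning 26 bases before the start, and none of the other letters searched. The C1qtnf3 window held CAGAC beginning 119 bases before the start, the same element on the opposite strand at 70 bases, GGAATG at 96 bases and TATAAA at 6 bases. The Col8a1 window held CAGAC at 103 bases. No match to TGANTCA was found in these windows. Of 32851 promoter windows of the same 250 bases, 12.4% held TATAAA, 42.2% CAGAC, 6.75% TGANTCA and 12.6% GGAATG. The matches did not overlap each other, and a match describes letters and is no evidence of binding.

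The levels of the 6 markers of the cluster are described first. They were chosen with earlier results of these data known, and the clusters were made from the same counts. Their levels therefore describe the cells and cannot test the name of the cluster. Postn (ENSMUSG00000027750, chromosome 3, 54361109 to 54391037, plus strand in GRCm38) was at 204, 2079.6 and 10585 scaled counts in the lowest, median and highest of the 45 soleus plate cells. In Acta2GFP it was at a lowest of 481, a median of 2077 and a highest of 3019, in C57BL6 at 1587, 1804 and 2208, and in PdgfrbGFP at 0, 10.9, 989.7 and 5750.03. Postn was present in all Acta2GFP and C57BL6 cells, whereas 2 of the 4 PdgfrbGFP cells were almost without it. The mean level of Postn over strain labels was 1970.5 ± 299 in cluster 4 and 277 ± 186 in the rest, a difference of 3.03 ± 0.90. It was not confined to cluster 4, since cluster 9, one of the perimysial clusters, reached 1027 on the soleus plate and 2407 in Acta2GFP, where it exceeded the 1937 of cluster 4.

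C1qtnf3 (ENSMUSG00000058914, chromosome 15, 10952332 to 10980150, plus strand) was the marker that separated cluster 4 most on the soleus plate. It was at 767 scaled counts there, against 34.1 in cluster 8, the next highest, and 31 of 45 cells stood at 100 scaled counts or more, the bound used below for cells that hold a marker. The lowest, median and highest cells held 0, 647 and 3359.9. In C57BL6 the values were 70.6, 262 and 1262, in Acta2GFP the lowest, median and highest were 170.5, 797 and 1732, and in PdgfrbGFP the values were 0, 0, 0 and 2.31. C1qtnf3 was therefore present in Acta2GFP, C57BL6 and the soleus plate and nearly absent from the cluster 4 cells of PdgfrbGFP. Its difference to the rest was 2.87 in Acta2GFP, 4.16 in C57BL6, 5.26 in the pool and −1.96 in PdgfrbGFP.

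Cthrc1 encodes a secreted protein with a short collagen repeat. It followed the same order, with cluster 4 means of 255, 157, 226 and 10.4 in Acta2GFP, C57BL6, the pool and PdgfrbGFP. On the soleus plate it was at 231 in cluster 4 and at 149 in cluster 9, where 50% of cells stood at 100 or more. Of the 6 markers, 4 stood above the highest other cluster by 1 or more there, and Cthrc1 and P4ha3 did not. P4ha3, a subunit of an enzyme that hydroxylates proline in collagen, was at 67.4 on the soleus plate, where 17 of 45 cells had no count. Single cells of cluster 9 there held up to 164. Outside the pool it reached a mean of 16.1 in Acta2GFP and was at 0 in all 3 C57BL6 and all 4 PdgfrbGFP cells, so its difference of 0.33 ± 1.61 had no common direction. Mest, an imprinted gene for a membrane protein of the hydrolase family, was at 661 on the soleus plate against 75.8 in cluster 3, and at 122, 237 and 73.6 in the cluster 4 cells of Acta2GFP, C57BL6 and PdgfrbGFP. In Acta2GFP this was close to the 102 of the rest. Mest shares 23.1% of its exonic bases with Copg2 on the opposite strand, and whether counting used strand is not stated in the sources used here.

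Col8a1 (ENSMUSG00000068196, chromosome 16, 57624258 to 57754737, minus strand) was a marker that stood above the highest other cluster in each strain label. It was at 711, 2154, 634 and 629.5 scaled counts in cluster 4 of Acta2GFP, C57BL6, the pool and PdgfrbGFP, and at 202, 214, 265 and 215 in the highest other cluster of each. The 4 cells of PdgfrbGFP held 321, 507, 803 and 887, all above 100, although C1qtnf3 was missing from them. The C57BL6 cells held 82.7, 2897 and 3482, and those of Acta2GFP ran from 56.7 to 1836. On the soleus plate the cells held 1.05, 519.6 and 2081 at the lowest, median and highest, so single cells overlapped with other clusters.

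Counted per cell, 4 or more of the 6 markers stood at 100 or more in 30 of 45 soleus plate cells, in 4 of 6 Acta2GFP cells and in 2 of 3 C57BL6 cells, but in 0 of 4 PdgfrbGFP cells. The single Cspg4dsRED cell had 2 markers at that level and the gastrocnemius cell of the pool 3. Of the 1506 other fibroblasts 7, or 0.465%, reached 4 markers. Most cluster 4 cells of the soleus plate, Acta2GFP and C57BL6 thus held 4 or more markers. Of the 4 PdgfrbGFP cells, 2 had 1 marker at that level, which was Col8a1.

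**Figure D1:**
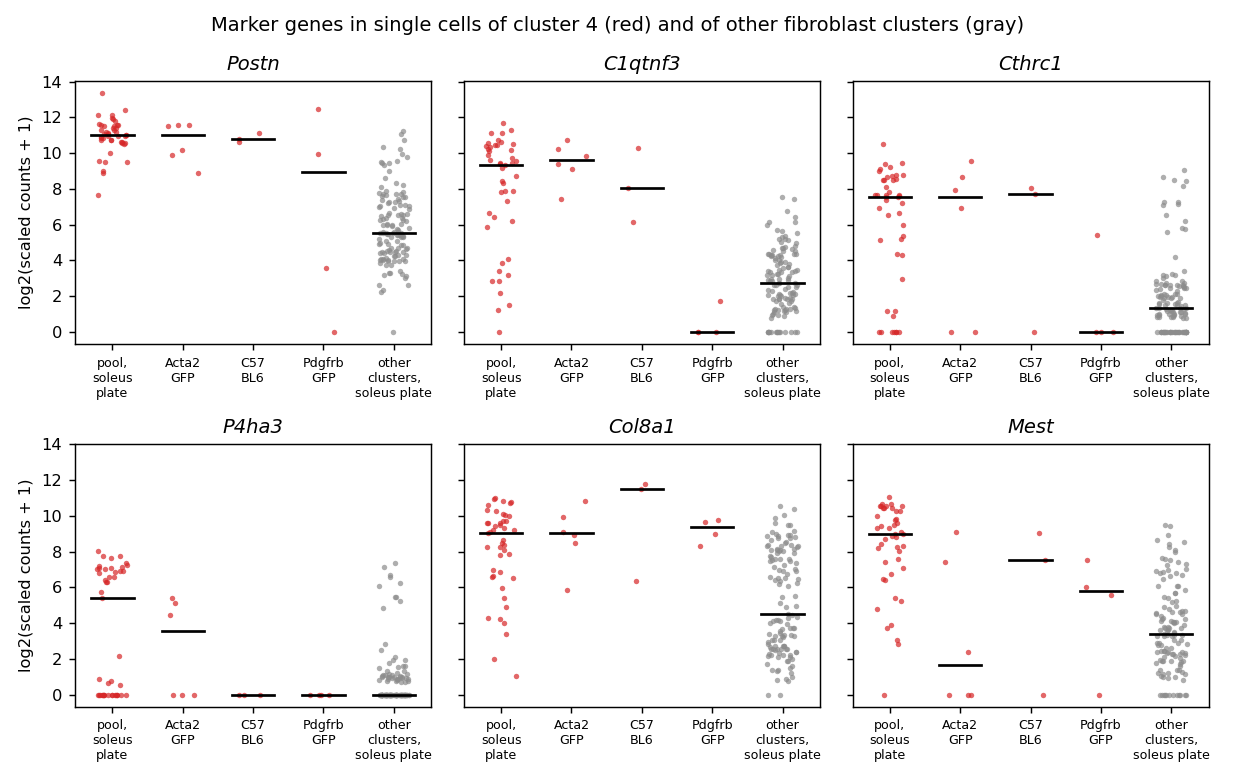
Levels of the 6 marker genes in single cells, as log2(scaled counts + 1) on the vertical axis, for cluster 4 cells of the soleus plate of the pool (45), Acta2GFP (6), C57BL6 (3) and PdgfrbGFP (4) in red and the 131 other fibroblasts of the soleus plate in gray, with a black line at each median. Col8a1 is present in all groups of cluster 4. In PdgfrbGFP C1qtnf3, Cthrc1 and P4ha3 are near 0, except for a cell with 41.5 scaled counts of Cthrc1.

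Few genes kept a large excess in every strain label. With a difference of 2 or more in all 4 labels there were 2 genes, Col8a1 and F2rl1 (0.0232% of the 8608 genes), and with a difference of 1 or more there were 12 (0.139%). The lower bound of 1 was added after the values had been seen. Col8a1 alone stood above the highest other cluster by 1 or more in every label (0.0116%). F2rl1, which encodes a receptor opened by proteases, was at 146, 66.4, 31.1 and 105 scaled counts in Acta2GFP, C57BL6, the pool and PdgfrbGFP, against 18.4, 1.85, 1.56 and 6.91 in the rest. Single cells carried these means, since 23 of the 45 soleus plate cells had no F2rl1 count and 4 stood at 100 or more.

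Elastin was the next. Eln (ENSMUSG00000029675, chromosome 5, 134702593 to 134747323, minus strand), whose product forms the rubber-like core of elastic fibres, was at 228 against 67.1 in Acta2GFP, 1203 against 146 in C57BL6, 639.7 against 73.3 in the pool and 547 against 82.1 in PdgfrbGFP, a difference of 2.60 ± 0.63. Cells differed widely, from 59.8, 1669 and 1879.7 in C57BL6 and 0, 249, 722 and 1218 in PdgfrbGFP to 0 and 4086 at the ends of the soleus plate. Fbln7, an adhesive fibulin, was at 419 ± 33.7 against 139.96 ± 46.3, and Aspn, a collagen-binding proteoglycan core protein, at 1378 ± 707 against 393 ± 126.

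The remaining genes of the 12 beside Postn were Fhl2, Dio2, Cilp, Angptl1, Vkorc1l1 and Lgmn. Cilp, a matrix protein known from cartilage, was at 4014 ± 2021 against 1075 ± 244, and its values in the PdgfrbGFP cells, 1614, 7661, 8205 and 8846, lay above those of the C57BL6 cells, 416, 3387 and 4161, with the exception of the lowest. Fhl2, a LIM-domain cofactor, stood at 133 ± 72.7 against 20.2 ± 14.4 and Dio2, which activates thyroid hormone, at 131 ± 57.3 against 22.9 ± 13.5. Of Angptl1, 16.4% of the exonic bases overlap another gene. The differences of these 6 genes lay between 1.14 for Lgmn and 2.43 for Fhl2.

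**Figure D2:**
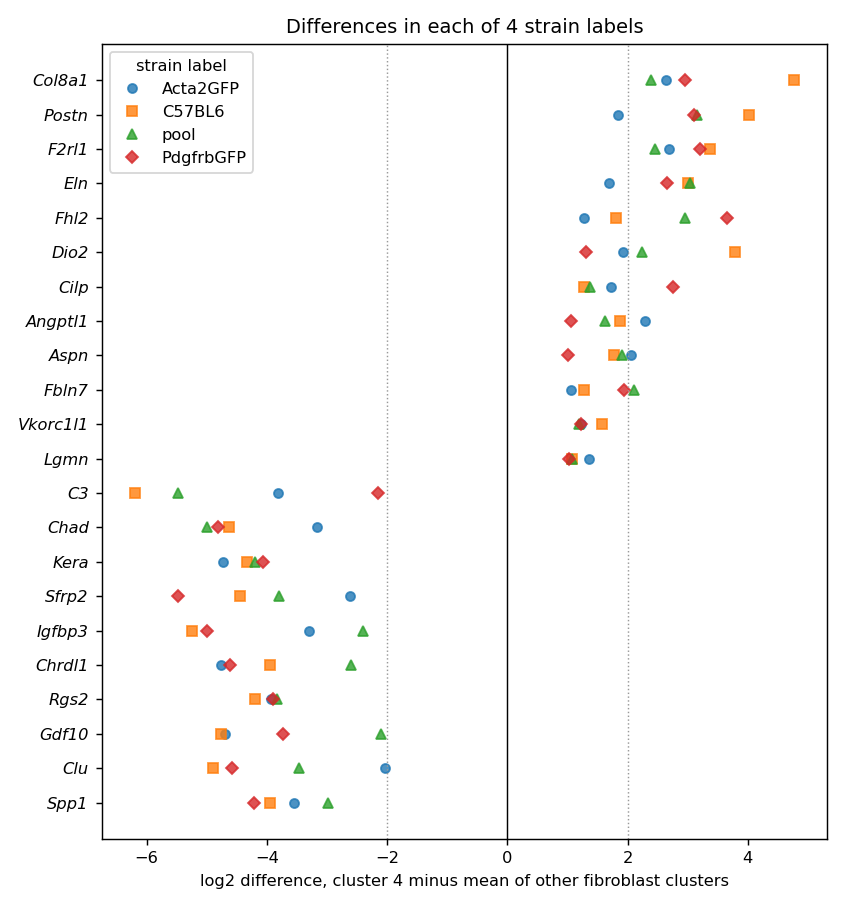
Log2 differences between cluster 4 and the mean of the other fibroblast clusters (horizontal axis) in each of 4 strain labels (symbols) for the 12 genes that were higher by 1 or more in every label and the 10 genes with the largest mean decrease among those lower by 2 or more in every label. Dotted lines mark −2 and 2, and the points of Col8a1 and F2rl1 are all to the right of 2.

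The soleus plate allowed the 7 other fibroblast clusters found on it to be set beside cluster 4. Cluster 5 had 0 cells there, so comparisons on this plate do not cover it. Of 8759 genes there, 44 (0.502%) were higher than the rest by 2 or more, and 60 (0.685%) stood above the highest other cluster by 1 or more. Without 1 cell rich in muscle fibre transcripts, described further on, these counts were 33 and 41. After C1qtnf3 the list was led by Mest, Dlk1, Copg2, Myl2, H19 and Myl1. Copg2, a coat protein of Golgi vesicles, is uncertain because it shares 17.8% of its exonic bases with Mest. Only 5 of the 60 genes were higher than the rest by 1 or more in all 4 strain labels, and 30 passed the highest other cluster in the pool but in no other label.

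Imprinted genes, which are expressed from the copy of 1 parent, made up part of that list. Of 25 listed imprinted genes 17 passed the level filter on this plate, and 8 were higher than the rest by 2 or more: Dlk1, H19, Igf2, Meg3, Mest, Peg3, Plagl1 and Zim1. The median difference of the 17 was 1.62, against −0.01 over all genes of the plate. A gene that passed the filter through cluster 4 alone had to be higher in it, here and in the lists that follow, so these counts and medians are descriptions. H19, a long noncoding RNA, was at 130.5 scaled counts in cluster 4 and at 20.02 in cluster 1, the next highest. It rested on 11 cells at 100 or more, with 1.24 in the median cell and 1373 in the highest. Igf2, a growth factor, was at 187 against 62.5 in cluster 6, with 17 cells at 100 or more, and 64.5% of its exonic bases overlap other genes. Dlk1, a ligand-like membrane protein of progenitor cells, was at 100 or more in 3 cells.

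In the other strain labels H19, Igf2 and Dlk1 were low in cluster 4. H19 was at 0.83, 0 and 6.6 in Acta2GFP, C57BL6 and PdgfrbGFP, Igf2 at 1.01, 19.1 and 0, and Dlk1 at 0.366, 0 and 0. Over the strain labels 0 of the 13 imprinted genes that passed the filter were higher by 1 or more in every label, and their median difference was 0.39. Mest and Grb10, an adaptor of insulin receptor signalling, were higher in 4 of 4 labels, Grb10 at 99.3 ± 23.8 against 47.8 ± 8.31. For Mest in Acta2GFP the mean was carried by cells with 553 and 173, and every other cell of that label held 4.26 or less. Impact, a regulator of translation, was lower in 4 of 4. Plate and strain label of the pool cannot be told apart for these genes, and 3 of the 4 PdgfrbGFP cells were from soleus as well.

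**Figure D3:**
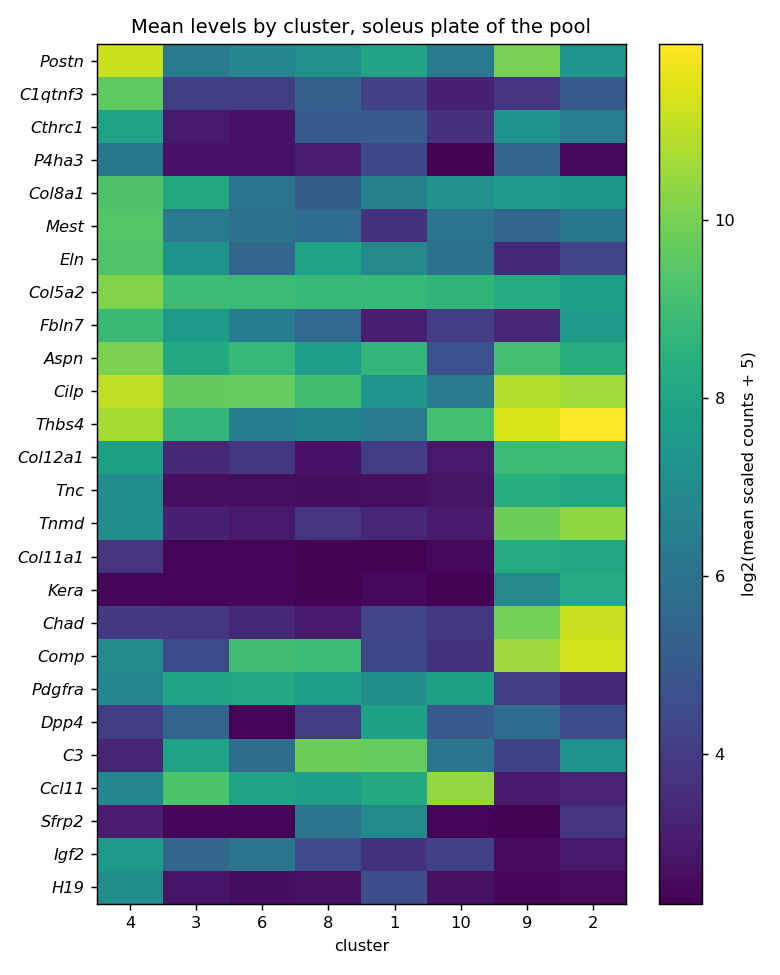
Mean level of 26 genes, as log2(mean scaled counts + 5) in color, in cluster 4 (left column) and the 7 other fibroblast clusters of the soleus plate of the pool. Cluster 4 has the highest value of each of the 6 markers, Eln, Col5a2, Fbln7, Aspn, Cilp, Igf2 and H19, shares Thbs4, Col12a1 and Tnc with clusters 9 and 2, and is low in Kera, Chad and C3.

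Genes lower in cluster 4 were more numerous. With a difference of −2 or less in every strain label there were 35 (0.407% of the 8608 genes), and with −1 or less there were 138 (1.6%). On the soleus plate 93 genes (1.06%) were lower by 2 or more. C3, the central protein of the complement cascade, was at 18, 4.82, 9.11 and 153 in Acta2GFP, C57BL6, the pool and PdgfrbGFP against 319.7, 717, 622 and 694 in the rest, a difference of −4.41 ± 1.81. No soleus plate cell of cluster 4 held more than 74.2, whereas the 4 PdgfrbGFP cells held 0, 10.6, 240 and 362. Among the soleus cells the mean of C3 was highest in clusters 8 and 1, at 923 and 829, followed by 231 in cluster 3. The median cell held 3.29, 6.16, 0.83 and 5.01 in clusters 2, 6, 9 and 10, and 2.65 in cluster 4.

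A first group of these genes is known from tendon and cartilage. Chad, which encodes chondroadherin, was at 39.99 ± 54 against 656 ± 321, and Kera, which encodes keratocan, at 1.98 ± 1.72 against 135 ± 30.3. Among the soleus cells the rest was carried by clusters 2 and 9, at 2367 and 966 for Chad and 299.7 and 112 for Kera, and 34 of 45 cluster 4 cells had no Kera count. A second group encodes secreted binding proteins of growth factors. Sfrp2, a Wnt antagonist, was at 2.55 ± 1.71 against 137 ± 74.2, Chrdl1, a BMP antagonist, at 5.9 ± 9.89 against 136 ± 46.6, and Igfbp3, an IGF carrier, at 11.9 ± 23.6 against 163 ± 92.7. On the soleus plate alone Sfrp2 and Igfbp3 differed by less, at −1.93 and −0.80.

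Rgs2, a regulator of G protein signalling, was close to absent, at 0.314 ± 0.425 in cluster 4 against 78.3 ± 8.79, with 32 of 45 soleus plate cells without a count and at most 2.65 in any of them. Gdf10, a ligand of the TGF-β family, was at 20.5 ± 31.3 against 213 ± 72.6, yet the gastrocnemius cell of the pool held 1023. Clu, an extracellular chaperone, and Spp1, which encodes osteopontin, were at 3.99 ± 3.98 and 2.46 ± 2.11 against 119 ± 56.8 and 89.8 ± 25.6. Of Spp1, 18.8% of the exonic bases overlap another gene.

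The most abundant transcripts were compared per length, as TPM, that is, counts divided by exonic length and set to the same sum in each cell. Mitochondrial genes were left out of this ranking. Of the 15 other genes with the highest mean, 8 were protein coding and the rest of the 15 were noncoding loci. Among these loci were AY036118, CT010467.1 and Gm42418, of which CT010467.1 is annotated as ribosomal RNA. Gsn, an actin-severing protein, led the coding genes at 6582 ± 3434 in cluster 4 and 8632 ± 2211 in the rest. Thbs4, a thrombospondin of tendon, followed at 5547 ± 2829 against 2526 ± 798, then Cilp at 5424 ± 2672 against 1446 ± 312 and Mgp, an inhibitor of calcification, at 5039.8 ± 3149 against 2952 ± 956. Cst3, Mfap4, Igfbp7 and Sparc completed the coding genes. Mfap4, a microfibril protein, was at 4261 ± 1659 against 1378 ± 576 on this scale, and Sparc, which binds collagen, at 4148 ± 2123 against 3719.6 ± 990.3.

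Thbs4 was abundant without being highest in cluster 4. Its level in scaled counts was 1684 on the soleus plate, below the 4029 of cluster 2 and the 2653 of cluster 9 and above the 537 of cluster 10, and its difference to the rest over strain labels was 1.02 ± 0.43. Transcripts of all listed matrix genes together took 9.57%, 11.3%, 9.87% and 14.0% of the counts in cluster 4 of Acta2GFP, C57BL6, the pool and PdgfrbGFP, and 8.93%, 7.22%, 7.93% and 8.83% in the rest. The share was larger in cluster 4 in 4 of 4 labels. These lists include Postn, Col8a1, Eln, Fbln7 and Aspn, which were higher in every label, so the share in part restates those differences. Transcripts of collagens I and III alone took 1.07% in cluster 4 of Acta2GFP against 1.24% in the rest. In the other labels their share was larger in cluster 4.

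The following lists are read against the shares above, 0.139% of all genes higher and 1.6% lower by 1 or more in every label. Structural collagens differed in part. Among 9 fibrillar collagen genes that passed the filter, of 11 listed, 0 were higher by 1 or more in every label and 2, Col11a2 and Col2a1, were lower. Col5a1 and Col5a2, whose chains set the diameter of collagen fibrils, differed by 1.57 ± 0.57 and 1.48 ± 0.53, both higher in 4 of 4 labels. Col5a2 was at 391, 1114 and 2330.1 in the lowest, median and highest soleus plate cells, against 490.2 in the highest other cluster. Col3a1 was at 3807 ± 1451 against 1627 ± 504, and Col1a1, the main fibril chain, at 3641 ± 1716 against 2940.2 ± 433, a difference of 0.20 ± 0.55. Of collagens VI and VIII, 6 of 8 passed, and Col8a1 was higher by 1 or more in every label, while Col6a3, of the beaded filament around cells, differed by 1.16 ± 0.72.

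Among 4 fibril-associated collagens that passed, Col12a1, which links fibrils, was at 299, 159, 216 and 25.1 in Acta2GFP, C57BL6, the pool and PdgfrbGFP, with a difference of −0.28 ± 1.42 that had no common direction. On the soleus plate it stood at 219 in cluster 4, 480.1 in cluster 9, 476 in cluster 2 and at most 11.2 in the other clusters. Col22a1, of the muscle-tendon junction, was lower by 1 or more in every label. Of 25 enzymes and helpers of collagen modification, 0 were higher by 1 or more in every label and 2, P3h2 and Pcolce2, were lower. Plod2, which hydroxylates lysine for cross-links, was at 83.2 ± 22.4 against 23.2 ± 7.38 and did not reach 1 in all labels. Of 16 basement membrane genes 0 differed by 1 or more in every label.

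Genes of elastic fibres had a median of 0.61 over 17 of 18 genes that passed, close to the 0.57 of collagens VI and VIII, against −0.29 over all genes. These medians on the soleus plate were 0.56 and 0.65. Eln and Fbln7 were higher and Efemp1 and Fbln1 lower by 1 or more in every label. Mfap4 differed by 1.62 ± 0.63. Efemp1, a fibulin, was at 22.3 ± 14.6 against 248 ± 43.3. Small leucine-rich proteoglycans had a median of −0.66 over 11 of 14 genes, with Aspn higher and Chad and Kera lower. Matricellular genes had a median of −0.24 over 20 of 23, with Postn higher and Spp1 lower.

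No listed signalling gene was higher by 1 or more in every label, and on the soleus plate Igf2 alone was higher by 2 or more. Of 9 Wnt ligands and modulators that passed, of 25 listed, Dkk2, Sfrp2 and Wif1 were lower by 2 or more in every label and 0 were higher, with a median of −2.01, which was −0.79 on the soleus plate, where Wif1 alone was lower by 2 or more. Wif1, which binds Wnt proteins, was without a count in 43 of 45 soleus plate cells. Of 18 BMP pathway genes Chrdl1 and Gdf10 were lower. Of 18 TGF-β and activin genes 0 differed by 1 or more in every label, and their median of −0.43 lay near that of all genes. In the insulin-like growth factor system Igfbp3 was lower, and Igf1, the growth factor itself, was at 409 ± 124 against 221 ± 15.3.

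Of 20 chemokine, cytokine and complement genes that passed, C2, C3, C4b and Ccl11 were lower by 1 or more in every label and 0 were higher. Ccl11, which attracts eosinophils, was at 52.1 ± 38.1 against 284 ± 41. Of C2, 46.9% of the exonic bases overlap other genes. Of 18 protease and inhibitor genes Timp3, an inhibitor of matrix proteases, was lower at 158 ± 71.1 against 665 ± 82.1, and 21.3% of its exonic bases overlap Syn3. Of 19 progenitor markers Dpp4, a membrane peptidase, was lower at 3.85 ± 5.48 against 86.8 ± 25.2, whereas Pdgfra was at 236 ± 159 against 269.7 ± 86.5.

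Of 18 tendon-linked genes Cilp was higher, Cilp2, Kera and Ptgis were lower and the median was −2.08, against −1.12 on the soleus plate. Of 13 genes that the study used for perimysial cells, Col11a2, Col22a1 and Wif1 were lower, with a median of −2.22, against −0.57 on the soleus plate. The study had chosen that list on these cells. For both lists the rest includes clusters 2 and 9, the perimysial ones. On the soleus plate Cilp was at 2119 in cluster 4, little above the 1856 of cluster 9 and the 1609 of cluster 2. Cilp2 was there at 1409 and 703 in clusters 2 and 9 and at 34.3 in cluster 4. In the other clusters there it was at most 4.57. Comp, also on the tendon list, was at 121 in cluster 4 and higher, at 509, in cluster 6. The medians therefore do not place cluster 4 below each other cluster. Of 10 contractile genes, 5 cell cycle genes and 24 immediate early and heat shock genes, 0 were higher by 1 or more in every label, and Rrm1 and Hspa1a were lower. On the soleus plate the difference of Hspa1a was −0.55.

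**Figure D4:**
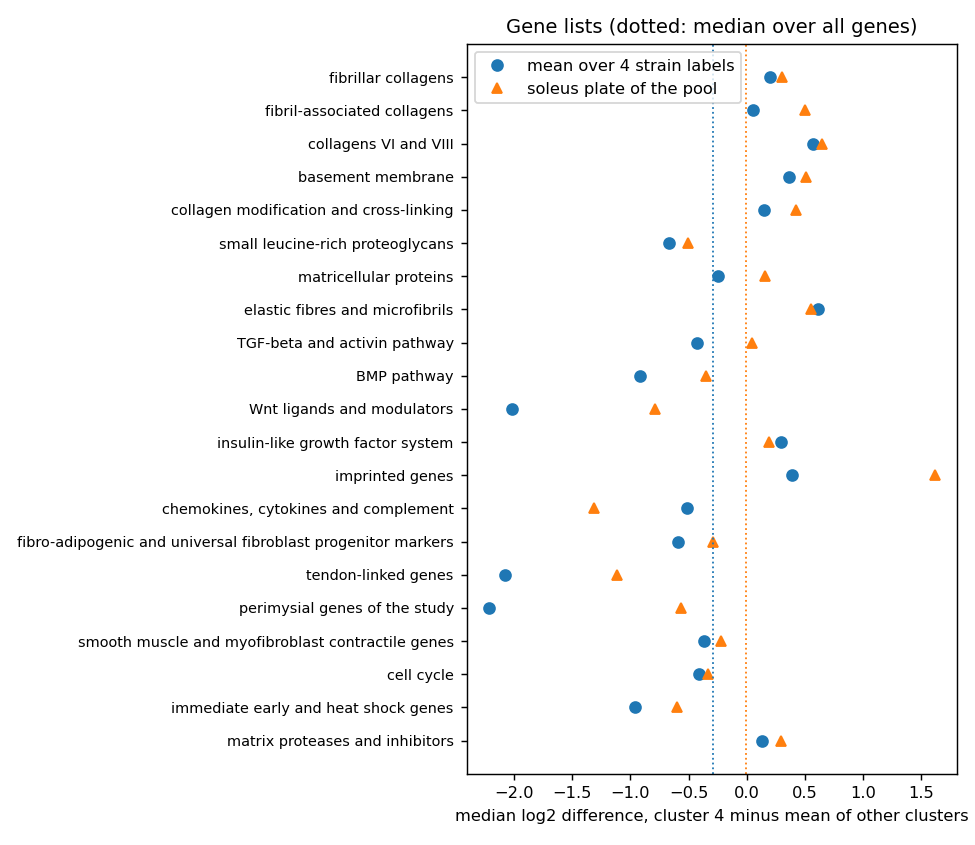
Median log2 difference between cluster 4 and the mean of the other fibroblast clusters over the members of 21 gene lists that passed the level filter, as the mean over 4 strain labels (circles) and on the soleus plate of the pool (triangles), with dotted lines at the medians of all genes (−0.29 and −0.01). Imprinted genes stand furthest right on the soleus plate, at 1.62, and tendon-linked, perimysial and Wnt genes furthest left over strain labels.

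Markers of other cell types were low in cluster 4, with 1 exception. The summed level of 8 endothelial markers lay between 0 and 176 scaled counts, that of 8 mural markers between 0 and 248, with a median of 4.91 against 4479 in mural cells, that of 8 immune markers between 0 and 162 and that of 6 Schwann cell markers between 0 and 83.5. The 4 adipocyte markers were at 0 in all 60 cells, and so were Pax7, Myf5, Myod1 and Cdh15 of the 5 satellite cell markers, Sox10 of the 6 Schwann cell markers and Cd3e, Cd74 and Adgre1 of the immune list. The summed level of 12 muscle fibre genes ran from 0 to 6922, with a median of 69.9 on the soleus plate, 32.9 in Acta2GFP and 0 in C57BL6 and PdgfrbGFP. The other fibroblasts of the soleus plate had cluster medians between 3.18 and 108. Myh4 was at 0 in all 60 cells. The part of fibre RNA in the results was not tested.

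The highest value belonged to 1 soleus plate cell, which also had the fewest counts of the cluster, 53889, and 15.2% of them from mitochondrial genes. It held 5529.9 scaled counts of Acta1, the actin of muscle fibres, 1151 of Myl1, 1104 of Myl2, 1076 of Klhl41 and 1373 of H19. The next cell held 1095 over the 12 muscle fibre genes. Acta1, Myl1, Myl2 and Klhl41 were among the genes above every other cluster on the soleus plate. Without this cell the mean of Acta1 was 125 in place of 245, that of Myl2 6.06 in place of 30.5, and that of H19 102 in place of 130.5. The differences of Acta1, Myl2 and H19 to the highest other cluster became 0.27, 0.87 and 2.10. Of the imprinted genes 7 in place of 8 were higher by 2 or more without it, Peg3 being the difference, and the median was 1.63. The counts of genes over strain labels, 2 higher and 35 lower, were the same without it.

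Cell-to-cell variation was described in the 45 soleus plate cells, as the squared coefficient of variation of each gene with a mean of 50 or more, relative to the 100 genes nearest in mean. In all 45 cells 10 of the 12 most variable genes had their highest value in the cell just described, among them Acta1, Nosip, Mef2c and Mrps30, and the exceptions were Fmod and Thbs1. Left without that cell, a choice made after the values were seen, the 12 were Fmod, Thbs1, Cxcl14, Comp, Tnmd, Adamtsl2, Eln, Igfbp5, Tnc, Sfrp4, Col12a1 and Gpx3. Fmod, a collagen-binding proteoglycan, was at 0, 22.6 and 3122 in the lowest, median and highest of the 44 cells, Thbs1, an adhesive glycoprotein, at a median of 19.5 and up to 2521, and Tnmd, a membrane protein of tendon cells, at a median of 3.94 and up to 1339.

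Several of these genes stood below 100 in most cells. Tnmd stood at 100 or more in 8 of 45 cells, Comp, a cartilage and tendon glycoprotein, in 8, Thbs1 in 10, Tnc in 13, Fmod in 15 and Cxcl14, a chemokine, in 15. In clusters 2 and 9 of the plate, the perimysial clusters, Tnmd and Fmod passed that level in 8 of 8 cells each, and in the 108 cells of clusters 1, 3, 6 and 8 in 0 and 4. Comp passed it in 7 of 8, 8 of 8 and 22 of 108 of these cells, and Tnc in 5 of 8, 3 of 8 and 0 of 108. Of the 8 cluster 4 cells with Tnmd at that level, 8 had Fmod, 8 Postn, 7 C1qtnf3, 6 Chodl, 1 Pdgfra and 0 Igf2. Of the 37 others, 37 had Postn, 24 C1qtnf3, 0 Chodl, 17 Pdgfra and 17 Igf2. Fmod was also at that level in 7 cluster 4 cells without Tnmd. Some cluster 4 cells thus held Tnmd and Fmod, which all cells of clusters 2 and 9 held, and others of the same plate did not. Most cells with Tnmd also held C1qtnf3, which passed that level in 0 of 8 cells of cluster 2 and 0 of 8 of cluster 9.

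Part of the markers varied together. Over the 41 soleus plate cells with 100000 or more counts, thinned to that number, Spearman's rho with C1qtnf3 was highest for Col12a1 (0.70), Cthrc1 (0.69), Fn1 (0.68), P4ha3 (0.67), Postn (0.67), Ssc5d, Tgfb3 and Col5a2 (0.65). It was lowest for Adh1 (−0.73), Entpd2 (−0.73), Cxcl14 (−0.66), Smoc2 (−0.66) and Htra3 (−0.66). Postn went with Col12a1 (0.75), Cilp (0.73), Tnc (0.72) and Thbs4 (0.69) and against Cd34 (−0.76), Htra3 (−0.69) and Ly6a (−0.65). These cells share a plate and the thinned depth, rho with total counts was 0.07 for C1qtnf3 and −0.24 for Postn, and the values describe these cells without a test.

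Other genes followed other orders. Eln went with Fbn1 (0.55), Loxl1 (0.53), Col8a1 (0.52) and Lox (0.52), followed by Atp1b3, Pura, Fzd1 and Dclk1 (0.44), and with C1qtnf3 at 0.26. Fbn1 encodes a microfibril protein, and Loxl1 and Lox encode cross-linking enzymes. Col8a1 went with Tnc (0.63) and Cilp (0.62) and with C1qtnf3 at 0.35. Mest went with Copg2 (0.96), which overlaps it, and with C1qtnf3 at 0.30. Igf2 went with Dlk1 at 0.56, with H19 at 0.30 and with Tnmd at −0.45, and H19 with C1qtnf3 at 0.04. With Acta1 rho was 0.43 for Dlk1, 0.26 for Meg3, 0.24 for Igf2, −0.04 for Mest and −0.07 for H19, and the part of fibre RNA in the levels of imprinted genes was not tested. Partners were ranked among 2291 genes.

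**Figure D5:**
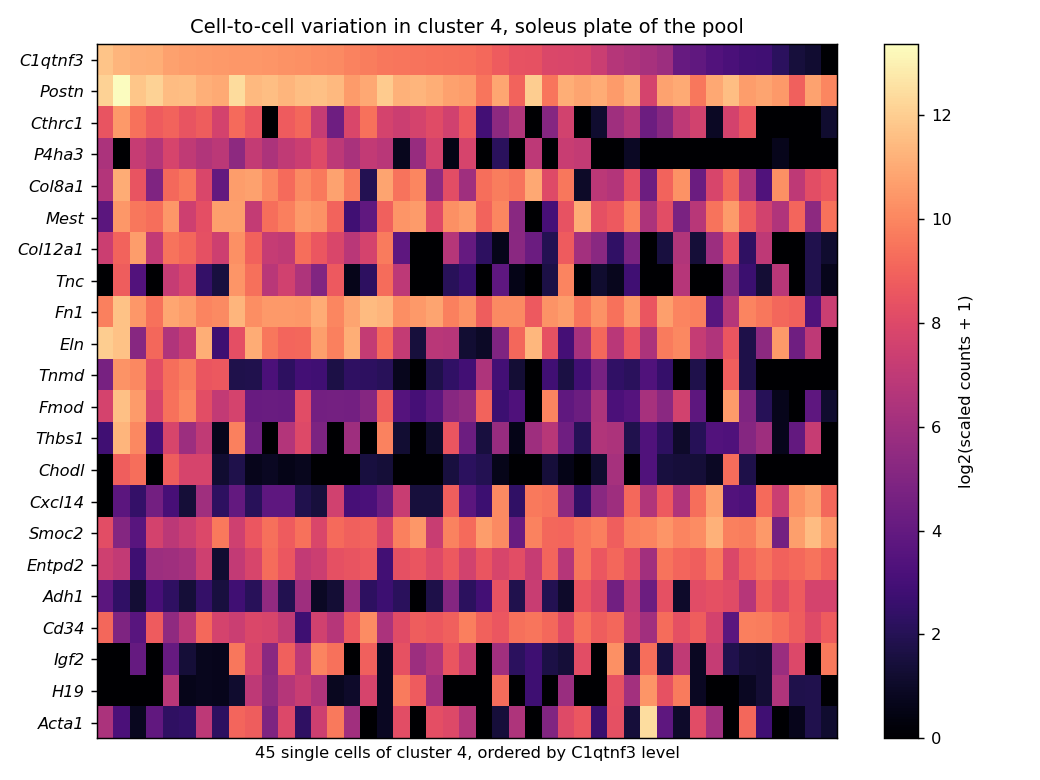
Levels of 22 genes, as log2(scaled counts + 1) in color, in the 45 cluster 4 cells of the soleus plate, each column being 1 cell and the columns ordered by C1qtnf3 from high to low. Cthrc1, P4ha3 and Col12a1 fade towards the right with C1qtnf3, Adh1 and Cxcl14 brighten, and Tnmd, H19 and Acta1 are bright in single cells.

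Cells of cluster 4 were about as alike as those of other clusters. The median Pearson correlation between pairs of its 41 thinned soleus plate cells was 0.326 over 5388 genes, against 0.353 in cluster 9, 0.340 in cluster 1, 0.333 in cluster 3, 0.323 in cluster 8 and 0.311 in cluster 6. The medians of single cluster 4 cells ran from 0.295 to 0.365 (SD 0.0150). Between cluster 4 cells and those of the other clusters the median was between 0.282 for cluster 1 and 0.300 for cluster 3. In mean profile cluster 3, an endomysial cluster, was nearest in all 4 strain labels, with a Pearson correlation over 8608 genes of 0.72 ± 0.13. The next was cluster 9 in Acta2GFP (0.718), cluster 8 in C57BL6 (0.543) and cluster 6 in the pool (0.836) and PdgfrbGFP (0.677), cluster 6 having under 3 cells in Acta2GFP. Over the 4 labels clusters 9 and 2, the perimysial ones, were at 0.61 ± 0.14 and 0.63 ± 0.10 and cluster 8 at 0.68 ± 0.11. Cluster 1, an endomysial cluster, was at 0.63 ± 0.12, level with cluster 2. Cluster 3 held 39 to 179 cells per label and cluster 9 held 9 to 23, and the part of cell number in this order was not tested.

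Cluster 4 cells held many genes. Thinned to 100000 counts, the median was 5388 genes in cluster 4 of the soleus plate (4 of 45 cells were shallower and left out), against 3817 to 4566.5 in the other clusters. Without thinning it was 7228 against 5110 to 6634.5. The median after thinning was the highest of all clusters in C57BL6 (3610 genes), PdgfrbGFP (4434.5) and the pool (5351), but in Acta2GFP, at 4587, it lay within the 4261 to 4894.5 of the others. The part of this in the level differences was not tested. With all cells thinned to 100000 counts 2 genes were higher and 34 lower by 2 or more in every label, and 2 and 29 of these were the genes called without thinning.

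The ratio of endogenous to spike-in counts, a measure of RNA per well that was not used for clustering, was the single quantity open to a test. Its median on the log2 scale in cluster 4 was 6.36, 6.17, 7.42 and 6.18 in Acta2GFP, C57BL6, the pool and PdgfrbGFP, and 6.73, 5.98, 6.66 and 5.93 in the other fibroblasts. The difference was −0.37, 0.19, 0.76 and 0.24, higher in 3 of 4 labels, with a mean of 0.20 ± 0.46 (n = 4). With signs flipped over the labels in an exact permutation test, two-sided, p was 0.5, and 4 labels cannot give a p below 0.125. The difference was thus smaller than the spread between labels. Within plates with 3 or more cluster 4 cells it was 0.19, −0.37, 0.66 and 0.35.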

How the data were processed

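Single cells of mouse skeletal muscle were sequenced with Smart-seq2 by the authors, and 1753 of the 1754 columns of the deposited table of counts matched the label of a cell, 1 being left out. Per the methods, adapters were trimmed, reads were mapped to GRCm38 with TopHat2 and either version of Bowtie, genes were counted with featureCounts, and spike-ins were added to each well. The authors removed cells with very many genes as possible doublets, and a doublet caller was not used here. The extraction text of the labels describes heart tissue, while the tissue field says skeletal muscle. Without molecular identifiers counts are reads.

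Counts were scaled to 500000 per cell. Of 46517 genes 46005 matched GENCODE for location and length. Genes passed with a level of 10 or more, clusters with 3 or more cells. Named genes were the 6 markers, the 15 highest per length with mitochondrial genes left out, and up to 20 above every other cluster. The 10 furthest lower, 4 or more per list and the 12 most variable were named as well. The 12 genes higher by 1, Copg2, the muscle fibre genes, Chodl and correlation partners were named after their values were seen. Members and lists were chosen with earlier results of these data known. Python 3.11.15, numpy 2.4.6, pandas 2.3.3, scipy 1.17.1 and matplotlib 3.10.9 were used, and the counting of genes was tested on simulated data. The simulated clusters shared a common profile and the planted changes were larger than the bound of 2. That run therefore cannot show how the counts behave with few real cells per label.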

Additional observations from a re-analysis of the deposited data

Results flagged for a closer look

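Of 18 sets of 4 strain label differences examined for an outlying value, 1 had one, and chance marks about 1 in 20. The difference of Cthrc1 to the rest was −0.12 in PdgfrbGFP, while it was 2.68 in Acta2GFP, 3.06 in C57BL6 and 2.70 in the pool, so the gap to the nearest value exceeded the critical share of the range for 4 values. The 4 PdgfrbGFP cells held 0, 0, 0 and 41.5 scaled counts of Cthrc1.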

How the results depend on the processing

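Cluster 4 and the rest were paired by strain label in every fit, and no replicate numbers pair single cells. Over strain labels, the 2 genes higher became 1 with a pseudocount of 20, 4 with counts summed over cells, 1 against the mean of all other cells and 44 on the soleus plate alone. The 35 genes lower became 91 with a pseudocount of 1, 8 with a pseudocount of 20, 23 with a level filter of 50, 16 against the mean of all other cells (14 shared) and 93 on the soleus plate alone (27 shared). The 1 gene above the highest other cluster became 2 with counts summed or cells thinned and 60 on the soleus plate. Leaving out 1 strain label gave 2 to 4 genes higher, 39 to 75 lower and 2 to 3 above the highest other cluster. Without Acta2GFP these were 4 higher and 3 above the highest, without C57BL6 3 above the highest, without the pool 75 lower and 2 above the highest, and without PdgfrbGFP 4 higher and 2 above the highest. The median similarity of 0.326 was 0.343 at full depth, 0.383 over genes with a mean of 100 or more and 0.359 as a Spearman correlation. P4ha3, 0.33 over strain labels, turned to −0.24 with a pseudocount of 1 and to −0.43 without the pool, and without 1 label it lay between −0.43 and 0.73. The spike-in difference lay between 0.0198 and 0.395 over its alternatives, with exact permutation p between 0.125 and 1. Leaving out the 1 cell with the most muscle fibre transcripts, chosen after seeing the data, left 2 genes higher and 35 lower over strain labels, and 33 higher, 93 lower and 41 above the highest other cluster on the soleus plate. Of the single genes, 149 results kept their direction and moved by less than the spread, and 17 moved by more. The cause was not tested. Depth limits low genes: the shallowest cluster 4 cell held 53889 counts.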
